A study of Mus musculus with 16 samples.

Results

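Loss of Upf3b was followed by different RNA changes in the cerebellum and the frontal cortex of adult mice, and the genes and programmes that differed are described here. For each gene, the interaction was the log2 fold change of Upf3b-KO against Ctrl in cerebellum minus the same fold change in frontal cortex. A positive interaction therefore means a more positive response in cerebellum, and a negative one a more positive response in frontal cortex. The comparison used 15 of the 16 libraries of the series, because 1 library of Upf3b-KO cerebellum held only 64981 counts. The product of Upf3b works in nonsense-mediated decay (NMD), by which cells destroy messenger RNAs that carry premature stop codons, as well as some normal ones. It links exon junction complexes, the protein marks left on spliced RNA, to the decay machinery, and its paralog Upf3a can act in the same pathway. The frontal cortex is built mainly from glutamatergic projection neurons and GABAergic interneurons, with the striatum and the ventricles with their choroid plexus close by. The cerebellar cortex is dominated by granule cells and Purkinje cells and lies directly above the brain stem, whose nuclei hold cholinergic, monoaminergic and glycinergic neurons.

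Frontal cortex (FC) and cerebellum (Cere) came from adult mice that lacked Upf3b and from littermates that carried it, which served as Ctrl. FC_Ctrl, FC_Upf3b-KO and Cere_Ctrl had 4 libraries each and Cere_Upf3b-KO had 3 deep ones, holding 27660078 to 35238677 counts per library. The tissues were whole dissected regions, so each value is an average over all cell types in the piece, and fewer cells of a type cannot be told apart from less RNA per cell. By the study's description both regions were taken from 4 adult mice of each genotype, so the regions share animals, whereas the test treated the 15 libraries as independent. Strain, sex, and which 2 libraries came from 1 mouse were not given in the sources used here, and p-values measure the spread between these libraries. That spread was small, with a biological coefficient of variation of 3.98% over all genes, and no pair of libraries within a group agreed within sampling noise. How much of the spread lay between mice was not tested. Levels are in CPM, a gene's counts scaled to the total of its library, which are not corrected for gene length, so they are compared between groups and not between genes.

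As a check of the labels, the level of Upf3b came first. It stood at 14.2, 15.7, 14.6 and 14.8 CPM in FC_Ctrl and at 0.566, 0.229, 0.857 and 0.586 CPM in FC_Upf3b-KO. In cerebellum it stood at 23.1, 23.6, 20.9 and 23.1 CPM in Ctrl and at 0.628, 0.965 and 0.617 CPM in Upf3b-KO. The genotypes did not overlap in either region. The fold change on the log2 scale was −4.80 (SE 0.15) in frontal cortex and −4.99 (SE 0.16) in cerebellum. Their difference was −0.19 (SE 0.28; Benjamini-Hochberg adjusted p 0.629, edgeR's quasi-likelihood test), so a difference in the depletion of Upf3b between the regions was not detected.

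Of 19831 genes tested, 1261 (6.36%) had a positive interaction and 603 (3.04%) a negative one, at a Benjamini-Hochberg adjusted p under 0.01 in edgeR's quasi-likelihood test and more than a 2-fold difference between the regional responses. The corresponding calls within a region were 1798 genes higher (9.07%) and 232 lower (1.17%) in Upf3b-KO frontal cortex, and 2267 higher (11.4%) and 510 lower (2.57%) in Upf3b-KO cerebellum. The median interaction over all tested genes was −0.01, so the calls are relative to a common shift near 0. Among the positive genes the median fold change on the log2 scale was 2.01 in cerebellum and −0.15 in frontal cortex. Among the negative genes it was −0.75 in cerebellum and 1.0 in frontal cortex. The cerebellar response was the larger in size for 1200 of the 1261 positive genes, whereas the frontal cortical response was the larger for 336 of the 603 negative ones. Of the called genes, 1599 were protein-coding and 210 were long non-coding RNAs. Of the 11178 genes that averaged 10 CPM or more in some group, 569 were positive and 252 negative.

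**Figure D1:**
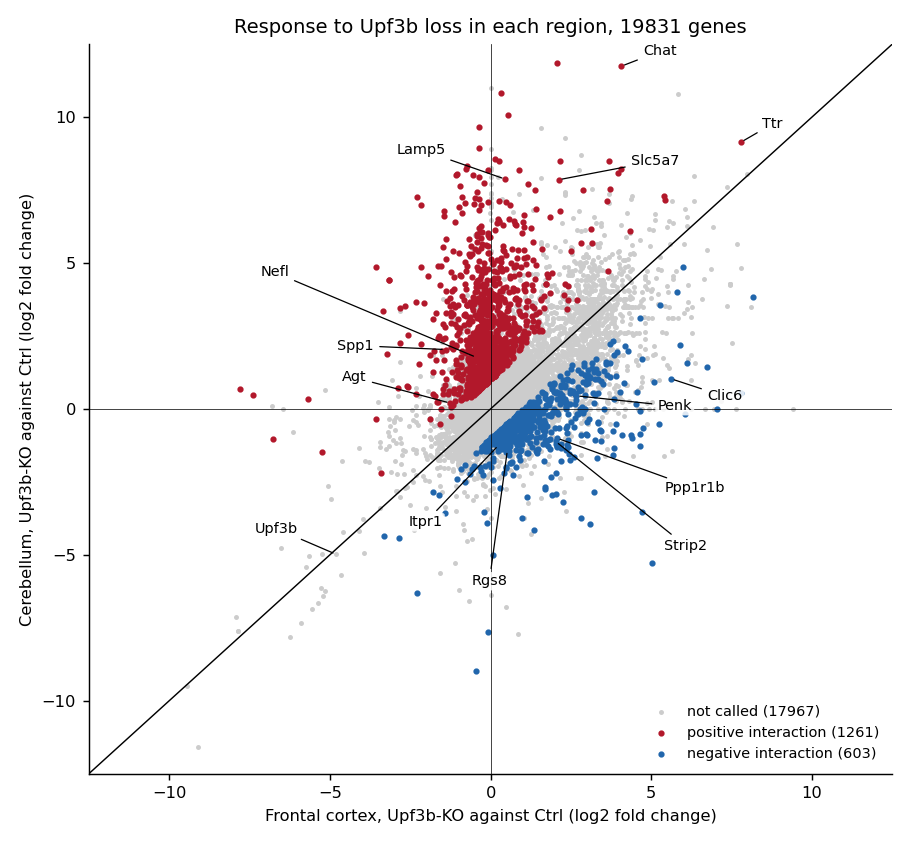
Each point is 1 of 19831 genes, with its log2 fold change of Upf3b-KO against Ctrl in frontal cortex on the x axis and in cerebellum on the y axis; the diagonal marks equal responses. The 1261 positive genes (red) lie above the diagonal, many near 0 on the x axis, and the 603 negative ones (blue) lie below it, while Upf3b sits on it near −5 in both directions.

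The called genes were next sorted by their calls within each region. The largest class was 943 genes that rose in cerebellum and were not called in frontal cortex, with a median interaction of 2.25. Another 224 genes rose in frontal cortex and were not called in cerebellum, with a median interaction of −2.0, and 157 fell in cerebellum alone by these calls. Genes called in opposite directions were few, with 27 up in cerebellum and down in frontal cortex and 23 the other way round. Another 34 fell in frontal cortex alone. A further 331 genes passed the interaction test although they were called in neither region, 177 positive and 154 negative. Finally, 78 genes rose in both regions with a steeper cerebellar fold change, 38 rose in both with a steeper frontal cortical one, and 9 fell in both.

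**Figure D2:**
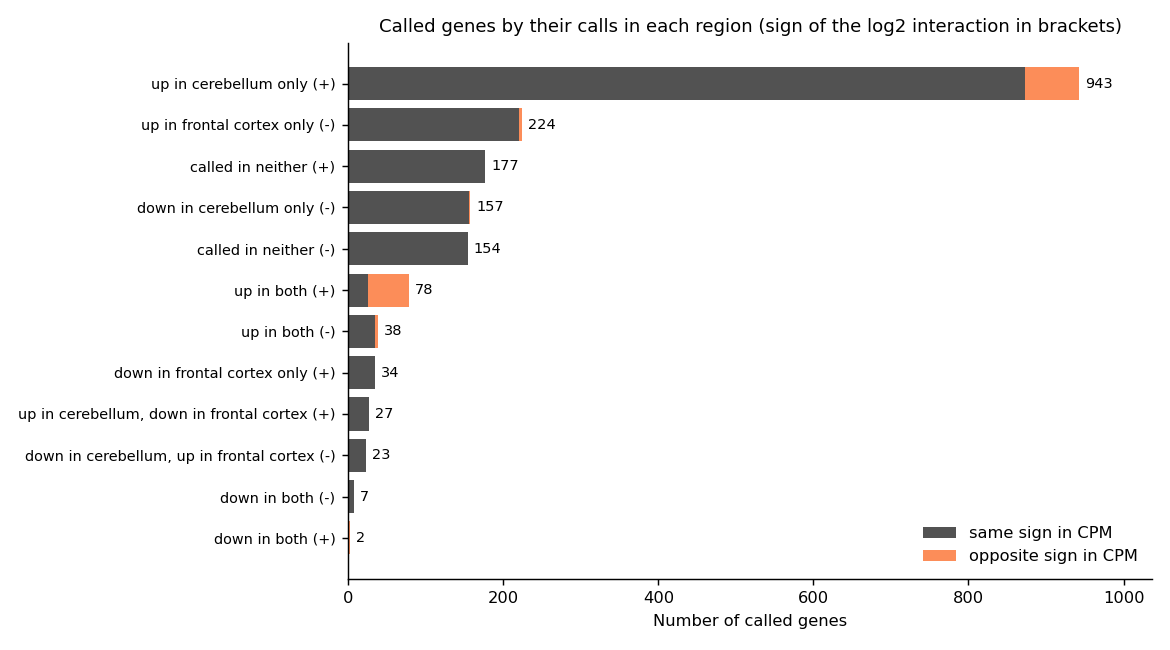
Bars count the called genes (x axis) in each class of regional calls (y axis, with the sign of the interaction in brackets); dark parts are genes whose difference in mean CPM has the sign of the log2 interaction and orange parts those with the opposite sign. Genes up in cerebellum only form the longest bar with 943, and the orange part is more than the dark part among the 78 positive genes up in both regions.

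A log2 interaction compares fold changes, and a gene near 0 in Ctrl can show a large fold change from a small added amount. The same difference of differences was therefore computed on mean CPM, as a description without a test. Its sign matched the log2 sign for 1731 of the 1864 called genes (92.9%). It matched for 873 of the 943 genes up in cerebellum only, but for 25 of the 78 up in both regions with a positive interaction and for 0 of the 2 that fell in both with one. The other 53 of the 78 gained more CPM in frontal cortex. A steeper fold change with a smaller gain requires a lower Ctrl level in cerebellum, so all of those 53 had one by construction.

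Nefl, Lamp5 and Nrsn1 had the smallest adjusted p among genes that rose in cerebellum and were not called in frontal cortex; such a rule picked all the single genes described first. Nefl encodes the light subunit of neurofilaments, the intermediate filaments of large axons (chr14:68321268-68326544 of GRCm39, plus strand). Its level was 781, 791, 777 and 781 CPM in FC_Ctrl and 606, 620.1, 614 and 615 CPM in FC_Upf3b-KO. In cerebellum it was 387, 379.8, 388 and 377 CPM in Ctrl and 1371, 1355 and 1339.9 CPM in Upf3b-KO. Ctrl cerebellum was thus the lowest of the 4 groups and Upf3b-KO cerebellum the highest, and no groups overlapped. The interaction was 2.19 (SE 0.02, adjusted p 5.49e-30 by edgeR's quasi-likelihood test), made of 1.76 in cerebellum and −0.43 in frontal cortex.

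Lamp5, a membrane protein of cortical neurons and of a class of cortical interneurons (chr2:135894159-135911924, plus strand), had 98.6, 98.2, 98.9 and 96.4 CPM in FC_Ctrl and 143, 140.1, 141 and 145 CPM in FC_Upf3b-KO. In Cere_Ctrl it was at 0.463, 0.470, 0.297 and 0.795 CPM, whereas in Cere_Upf3b-KO it was at 122, 121 and 125 CPM. The cerebellar level without Upf3b was close to that of the cortex, and the interaction was 7.41 (SE 0.08, adjusted p 2.36e-28 by edgeR's quasi-likelihood test). Nrsn1, which encodes the neuronal vesicle protein neurensin, stood at 101 to 102 CPM in Cere_Ctrl and 375 to 388 CPM in Cere_Upf3b-KO. In frontal cortex it was at 912 to 922 CPM and 1000.3 to 1021 CPM, giving an interaction of 1.78 (SE 0.02).

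Other genes turned in opposite directions. Spp1 encodes osteopontin, a secreted phosphoprotein made by activated microglia and by some brain stem and motor neurons (chr5:104582165-104589235, plus strand). It was at 24.1, 22.3, 23.0 and 23.6 CPM in FC_Ctrl and at 8.96, 9.41, 9.29 and 9.68 CPM in FC_Upf3b-KO. In cerebellum it was at 30.6, 30.5, 31.2 and 31.1 CPM in Ctrl and at 132, 129.7 and 134 CPM in Upf3b-KO. Spp1 fell in one region and rose in the other, with an interaction of 3.43 (SE 0.06). Tshz2, a zinc finger transcription factor of cortical neurons, fell in frontal cortex, with 106 to 116 and 41.9 to 46.1 CPM, and rose in cerebellum, with 3.04 to 4.13 and 23.3 to 26.3 CPM. Fibcd1, a receptor that binds acetylated sugars, behaved alike, with 79.0 to 83.5 CPM against 38.3 to 40.6 CPM in frontal cortex and 0.264 to 0.529 CPM against 7.4 to 9.0 CPM in cerebellum.

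Slc5a7, Tac1 and Car12 rose in both regions and more steeply in cerebellum. Slc5a7 encodes the choline transporter that feeds acetylcholine synthesis. It was at 1.35, 1.39, 1.39 and 1.21 CPM in FC_Ctrl and at 6.28, 6.76, 5.54 and 5.98 CPM in FC_Upf3b-KO. In Cere_Ctrl it was at 0.145, 0.323, 0.198 and 0.217 CPM and in Cere_Upf3b-KO at 51.6, 54.7 and 56.4 CPM, so the interaction of 5.73 (SE 0.21) also held as an added amount, 49.2 CPM more in cerebellum. For Tac1, the precursor of substance P, and Car12, a carbonic anhydrase, it did not: their interactions were 5.39 (SE 0.17) and 3.88 (SE 0.14) on the log2 scale, but cerebellum gained less CPM than frontal cortex, with differences of −1.08 and −28.4 CPM.

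Among the genes called in neither region, Cst3, which encodes the protease inhibitor cystatin C, had 1710.4, 1753, 1717 and 1722 CPM in FC_Ctrl and 1165, 1152, 1176 and 1147 CPM in FC_Upf3b-KO. In cerebellum it had 342, 330.1, 322 and 336 CPM in Ctrl and 578, 570.5 and 573 CPM in Upf3b-KO. The genotypes were separate in both regions. The regions lay closer to each other in Upf3b-KO than in Ctrl, with cerebellum minus frontal cortex at −1.03 against −2.40 on the log2 scale, for an interaction of 1.38 (SE 0.02). Zwint, a kinetochore-linked protein also made in neurons, and Ncs1, a neuronal calcium sensor, had interactions of 1.09 and 1.36 made the same way.

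Some genes fell in frontal cortex and were not called in cerebellum. Nnat, an imprinted gene for the membrane proteolipid neuronatin, fell from 513 to 527 CPM to 252 to 261 CPM in frontal cortex, while cerebellum averaged 103 CPM in Ctrl and held 128 to 131 CPM in Upf3b-KO. Agt, the angiotensin precursor that astrocytes secrete, fell from a mean of 30.3 to 13.5 CPM in frontal cortex and was at 74.7 to 81.2 and 91.2 to 95.6 CPM in cerebellum. Dcn, the matrix proteoglycan decorin of fibroblasts, fell from 68.4 to 78.3 CPM to 24.0 to 27.6 CPM in frontal cortex and was at 27.0 to 29.6 and 19.1 to 21.8 CPM in cerebellum, lower in each Upf3b-KO library there but under the fold limit. Their interactions were 1.39, 1.45 and 1.05.

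Ppp1r1b, Penk and Sulf1 rose in frontal cortex and were not called in cerebellum. Ppp1r1b encodes DARPP-32, the dopamine-regulated phosphatase inhibitor of striatal medium spiny neurons (chr11:98239169-98248624, plus strand). It was at 65.8, 66.9, 70.2 and 67.6 CPM in FC_Ctrl and at 298, 294, 299.8 and 299 CPM in FC_Upf3b-KO. In cerebellum it was at 251, 239, 232 and 249 CPM in Ctrl and at 125, 127 and 128 CPM in Upf3b-KO. The regional order was thus inverted between the genotypes, with an interaction of −3.06 (SE 0.03, adjusted p 2.36e-28 by edgeR's quasi-likelihood test). Penk, the enkephalin precursor, went from 35.0 to 39.4 CPM to 248 to 252 CPM in frontal cortex, and stood at 123 to 131 and 178 to 188 CPM in cerebellum. Sulf1, which removes sulphate groups from heparan sulphate outside the cell, had an interaction of −3.22 (SE 0.06).

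**Figure D3:**
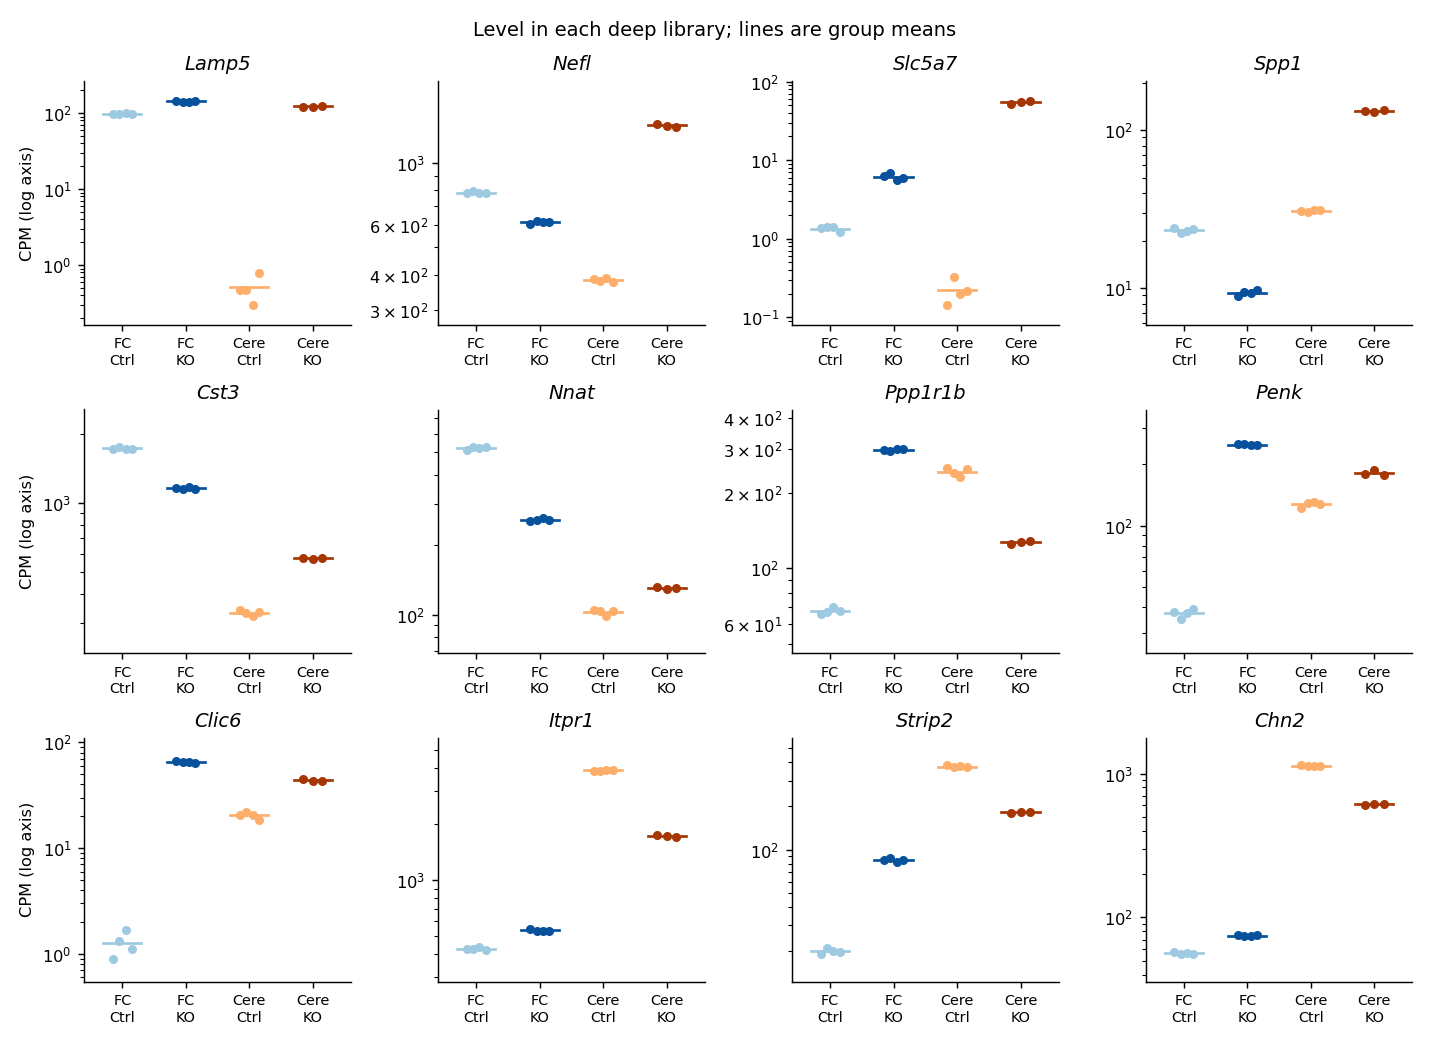
Points are CPM (log axis) of 12 genes in the 15 deep libraries, grouped on the x axis as FC Ctrl, FC KO, Cere Ctrl and Cere KO, and lines are group means. Replicates lie close together relative to the distances between groups; Lamp5 in cerebellum moves from under 1 CPM to above 120 CPM, and Ppp1r1b rises in frontal cortex and is lower in cerebellum.

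Itpr1 and Rgs8 fell in cerebellum and were not called in frontal cortex. Itpr1 encodes the inositol trisphosphate receptor that releases calcium in Purkinje cells (chr6:108190048-108528070, plus strand). It was at 3889, 3885, 3906 and 3893 CPM in Cere_Ctrl and at 1740.5, 1726 and 1710.3 CPM in Cere_Upf3b-KO. In frontal cortex it was at 425, 425, 433 and 422 CPM in Ctrl and at 545, 534, 535 and 533 CPM in Upf3b-KO. The interaction was −1.49 (SE 0.02), and no groups overlapped. Rgs8, a regulator of G protein signalling in Purkinje cells, fell from 2233 to 2252 CPM to 881 to 898 CPM in cerebellum and was at 56.0 to 59.1 and 86.1 to 89.8 CPM in frontal cortex. Chn2, Garnl3 and Plcb4, the last a phospholipase C of Purkinje cells, had interactions of −1.29, −1.34 and −1.28 without a call in either region. For Chn2, an activator of the GTPase activity of Rac, cerebellum held 1124 to 1140.1 CPM in Ctrl and 606 to 617 CPM in Upf3b-KO.

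Strip2, Cep72 and Casq2 fell in cerebellum and rose in frontal cortex. Strip2 encodes a component of the STRIPAK phosphatase complex. It was at 18.9, 20.8, 19.9 and 19.6 CPM in FC_Ctrl and at 84.6, 87.2, 82.2 and 84.9 CPM in FC_Upf3b-KO. In cerebellum it was at 381, 371, 375 and 369.8 CPM in Ctrl and at 179, 183 and 182 CPM in Upf3b-KO, for an interaction of −3.13 (SE 0.04). Cep72, a centrosomal protein, and Casq2, a calcium-binding protein that Purkinje cells also make, had interactions of −2.58 (SE 0.14) and −2.67 (SE 0.15). In Ctrl mice their means were 2.21 and 1.53 CPM in frontal cortex and 37.4 and 62.3 CPM in cerebellum.

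Few genes fell in both regions. Ifit3 and Ifit3b, interferon-induced genes that lie next to each other and are near-identical, so that reads may be divided wrongly between them, had interactions of −1.05 each. Ifit3 was at 11.6 to 15.5 CPM in FC_Ctrl and 1.28 to 1.86 CPM in FC_Upf3b-KO, and at 24.5 to 27.0 and 1.23 to 1.51 CPM in cerebellum. Both calls were lost when single libraries were left out. For Ifit3 these were FC_Ctrl 1, FC_Upf3b-KO 2 and Cere_Upf3b-KO 2 and 3 (−0.92 at the smallest), and for Ifit3b FC_Upf3b-KO 3 and Cere_Upf3b-KO 3 (−0.86 at the smallest). Il22, a cytokine gene with the near-identical copy Il22b, was at 0 in all 4 FC_Upf3b-KO libraries against 0.170 to 0.570 CPM in FC_Ctrl. Set against 3 counts pooled over that group it was at least 17.2-fold lower, and in cerebellum it fell from 10.9 to 12.3 CPM to 4.74 to 6.43 CPM; its fitted interaction of 5.73 depends on the treatment of zeros, and on the CPM scale the difference was −5.30.

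Gene lists of cell types, brain regions and pathways were then read for their members' interactions, beside the background of 6.36% positive and 3.04% negative genes. The lists were chosen with earlier results of these data known, so their counts are descriptions. On the cell type lists together, 114 of the 300 genes tested were called, and without all of these marker genes 1199 genes were positive and 551 negative.

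**Figure D4:**
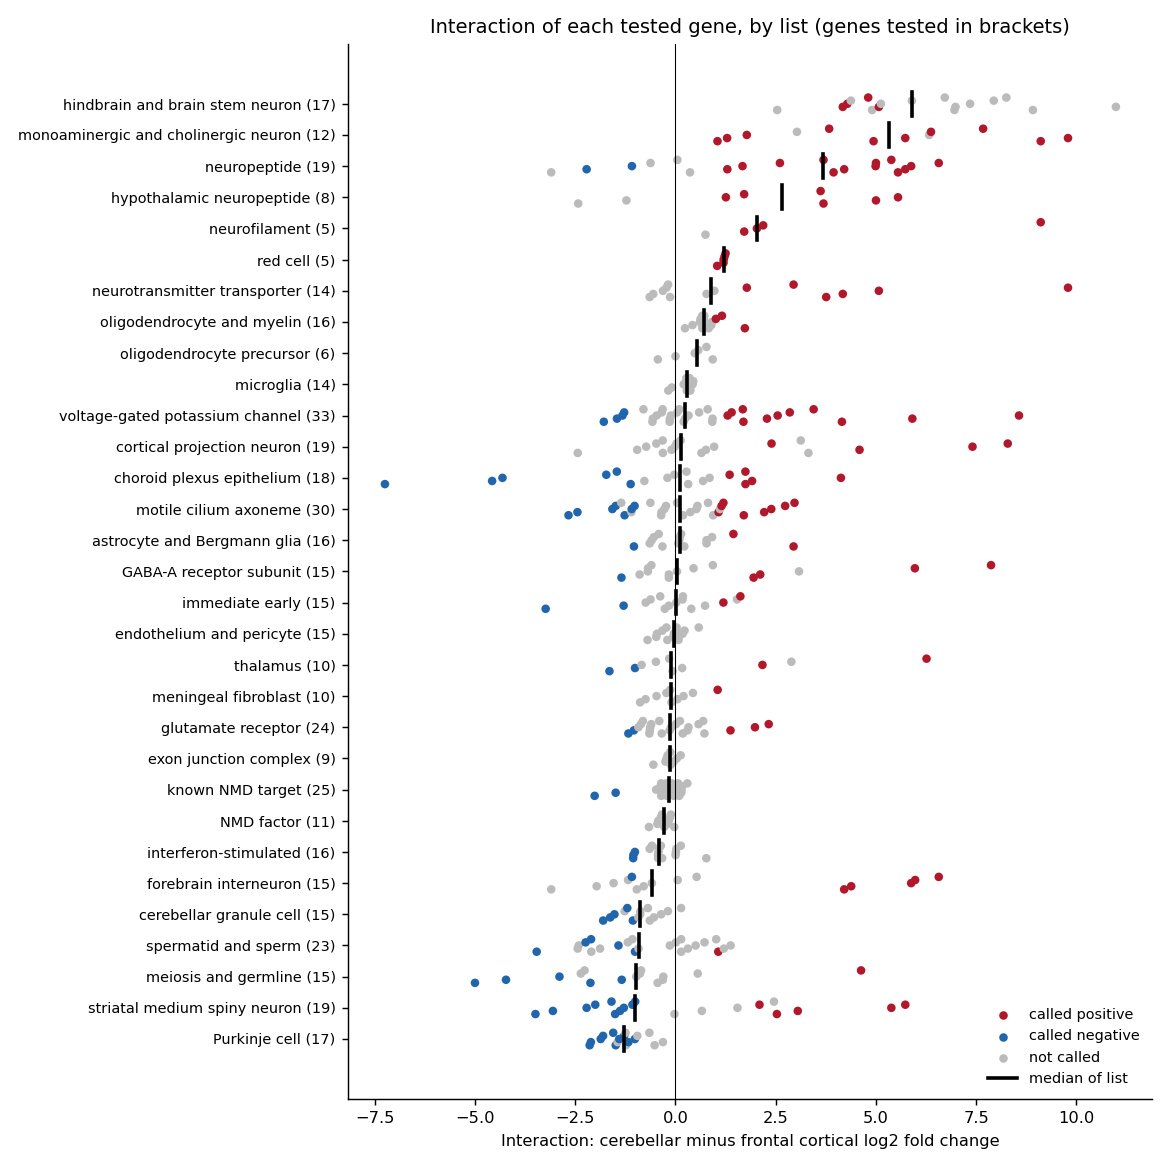
Points are the interactions (x axis, log2) of the tested members of 31 lists (y axis, with the number tested in brackets), coloured by call, and black bars are list medians. All 17 Purkinje cell members lie below 0. All 12 monoaminergic and cholinergic members lie above it, a direction that the count filter fixed for any near 0 in both frontal cortex and Ctrl cerebellum. The hindbrain and brain stem points rest mostly on members near 0 counts in frontal cortex or in Ctrl cerebellum, and the choroid plexus, motile cilium and striatal lists spread to both sides of 0.

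Purkinje cell genes had the lowest median interaction, −1.28, with 10 of 17 called negative and 0 positive, and all 17 values were below 0. Within cerebellum 11 of the 17 fell. Their summed level was 13620 to 13770 CPM in Cere_Ctrl and 5776 to 5797 CPM in Cere_Upf3b-KO, against 1080 to 1102 and 1340 to 1358 CPM in frontal cortex. Car8, a protein that binds the calcium channel encoded by Itpr1, had 3172, 3235, 3193 and 3192 CPM in Cere_Ctrl and 1118, 1109 and 1119 CPM in Cere_Upf3b-KO, with an interaction of −2.14. Calb1, the calcium buffer calbindin, had −1.40 and Pcp4, which encodes a calmodulin-binding peptide, −1.55. Pcp2, the classical Purkinje marker, fell from a mean of 385 to 147 CPM in cerebellum, but frontal cortical means were 0.0975 and 0.111 CPM and the interaction of −1.44 was not called (SE 0.66, adjusted p 0.0733, edgeR's quasi-likelihood test).

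Granule cell genes, the other cerebellar neuron list, had 5 of 15 negative, 0 positive and a median of −0.88, and 8 of 15 fell in cerebellum. Their summed level was 5413 to 5445 CPM in Cere_Ctrl and 2865 to 2877 CPM in Cere_Upf3b-KO. Cbln3, which organises synapses with cerebellin 1, had an interaction of −1.52, the transcription factor Zic1 −1.63 and Cadps2, a vesicle release factor, −1.06. Gabra6, the receptor subunit that marks granule cells, fell from a mean of 747 to 389 CPM in cerebellum and averaged 0.0753 and 0.0646 CPM in frontal cortex, so its interaction of −0.69 had an SE of 0.72.

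Genes of cholinergic and monoaminergic neurons showed the reverse, with 10 of 12 positive, 0 negative and a median of 5.34. Members low in both frontal cortex and Cere_Ctrl could pass the count filter only through Upf3b-KO cerebellum, which fixed their direction. The size also rests on members that were low in a Ctrl group, since the 3 with 1 CPM or more in both Ctrl groups were all positive with a median of 1.29. Their summed level was 23.2 to 25.8 CPM in Cere_Ctrl and 189 to 197 CPM in Cere_Upf3b-KO, against 21.5 to 23.9 and 29.8 to 35.1 CPM in frontal cortex. Chat, the enzyme that makes acetylcholine, was at 0 in all 4 Cere_Ctrl libraries and at 13.4, 13.0 and 14.5 CPM in Cere_Upf3b-KO, at least 575-fold higher when set against 3 counts pooled over the Ctrl libraries. Slc18a3, the vesicular acetylcholine transporter nested in the same locus, was at 0 in Cere_Ctrl and at 14.1, 14.4 and 15.9 CPM in Cere_Upf3b-KO, at least 625-fold higher by the same reckoning. In frontal cortex the means were 0.183 and 3.26 CPM for Chat and 0.219 and 0.975 CPM for Slc18a3, and both rose. Tph2, the enzyme of brain serotonin synthesis, had an interaction of 3.83, Dbh, which makes noradrenaline, 4.94, and Slc6a4, the serotonin transporter, 6.37. Th, which makes the dopamine precursor, had the smallest of the 12, 1.05, under the fold limit without FC_Ctrl 2 or FC_Upf3b-KO 3 (0.91 at the lowest).

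For the hindbrain and brain stem list the number called depended on the tool, with 4 of 17 tested members positive by edgeR, 15 by DESeq2 and 17 by limma-voom. For 13 of the 17 no Cere_Ctrl library held more than 3 counts, and for 13 no frontal cortical library did. Members low in all of these groups passed the count filter only through Upf3b-KO cerebellum, which fixed their direction, so nothing is read from the list's median or the sign of its members. Slc17a6 alone had 1 CPM or more in both Ctrl groups. Of the 13 near 0 in frontal cortex, 1, Slc6a5, was called by edgeR. That call was lost without FC_Ctrl 1 or 4, and without FC_Ctrl 4 the count was 2, since Hoxa4 was lost too. Over all genes, 44 of the 2267 that rose in cerebellum were at 3 counts or fewer in every frontal cortical library, and 7 of them were called. Of the 1798 that rose in frontal cortex, 214 were at 3 counts or fewer in every cerebellar library, and 2 of them were called. Hox genes, transcription factors that keep the position code of hindbrain and spinal cord, made up most of the list. Hoxb5 had 0.0289, 0, 0.0660 and 0.0723 CPM in Cere_Ctrl and 28.6, 25.7 and 29.9 CPM in Cere_Upf3b-KO. Slc17a6, the glutamate transporter of brain stem and thalamic neurons, was expressed in both regions, with means of 9.36 and 156 CPM in cerebellum and 27.3 and 25.4 CPM in frontal cortex (interaction 4.17). Slc6a5, the glycine transporter of inhibitory brain stem and deep cerebellar neurons, had means of 35.0 and 176 CPM in cerebellum, and 0.0230 and 0 CPM in frontal cortex.

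Striatal medium spiny neuron genes were divided, with 10 of 19 negative and 5 positive and a median of −1.0. Within frontal cortex 15 of the 19 rose. Adora2a, the adenosine receptor of the indirect pathway, rose from a mean of 2.55 to 38.5 CPM there and had 1.30 and 1.74 CPM in cerebellum, an interaction of −3.49. Pde10a, a striatal phosphodiesterase, had −1.5 and the dopamine receptor gene Drd1 −1.07. Drd1 was not called without Cere_Ctrl 2 or Cere_Upf3b-KO 3 (−0.72 at the smallest), nor by limma-voom. Tac1, Pdyn, Drd2 and Bcl11b were among the 5 positive members, and their means in Cere_Ctrl were below 1 CPM. Among the 11 members with 1 CPM or more in both Ctrl groups 9 were negative and 0 positive. On the CPM scale the difference was negative for 19 of 19, with summed levels of 586 to 599 and 1790 to 1811 CPM in frontal cortex against 629 to 641 and 814 to 827 CPM in cerebellum.

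Choroid plexus genes showed the same dependence on scale. The choroid plexus is the secretory epithelium that makes cerebrospinal fluid. Of 18 genes, 5 were positive and 6 negative and all 18 rose in frontal cortex and 17 in cerebellum. The calls of Tmem72 (negative) and Folr1 (positive) were lost in 10 and 5 of the 15 refits that left out a library. Neither Tmem72 nor Aqp1 was called by limma-voom. The median interaction was 0.12, but −0.12 without Cere_Ctrl 1, −0.04 without FC_Ctrl 3 and −0.13 by limma-voom, so it had no stable sign. With 1 CPM or more in both Ctrl groups 6 members were left, 2 of them positive and 2 negative, with a median of −0.49, and with 10 CPM or more in some group the median of 17 was 0.27. The cerebellum minus frontal cortex difference among these genes ranged from −4.56 to 7.28 on the log2 scale in Ctrl, but from −1.31 to 0.04 in Upf3b-KO. Otx2, a transcription factor of this epithelium, had 6.57, 6.85, 6.57 and 6.25 CPM in Cere_Ctrl, 10.4, 10.5 and 9.34 CPM in Cere_Upf3b-KO, at most 0.0931 CPM in FC_Ctrl and 9.05 to 10.7 CPM in FC_Upf3b-KO, for an interaction of −7.25 (SE 0.31). Sostdc1, a secreted antagonist of BMP and Wnt, had 4.13 (SE 0.27), with Cere_Ctrl at 0.0289 to 0.181 CPM. Ttr, which encodes the thyroid hormone carrier transthyretin, averaged 7.94 and 1848 CPM in frontal cortex, 2.05 and 1209 CPM in cerebellum, so a positive log2 interaction of 1.35 went with a smaller CPM gain in cerebellum. For all 18 genes the gain in CPM was the smaller one in cerebellum, with summed levels of 257 to 259 and 5410 to 5466 CPM in frontal cortex against 223 to 225 and 3585 to 3602 CPM in cerebellum.

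Clic6 and Ecrg4 belong to the same list and rose in both regions with a steeper frontal cortical fold change, as did Ace, the angiotensin-converting enzyme. Clic6, a chloride channel family member (chr16:92282624-92338739, plus strand), was at 0.901, 1.33, 1.68 and 1.12 CPM in FC_Ctrl and at 66.6, 64.9, 65.6 and 63.6 CPM in FC_Upf3b-KO. In cerebellum it was at 20.4, 22.0, 20.5 and 18.6 CPM in Ctrl and at 44.7, 43.4 and 43.0 CPM in Upf3b-KO. Upf3b-KO levels of the regions were close while Ctrl levels were not, and the interaction was −4.57 (SE 0.11). Ecrg4, a secreted peptide precursor, had −1.46 (SE 0.12). Ace had −1.01 (SE 0.08), which fell under the fold limit when 1 of 6 libraries was left out (FC_Ctrl 1 or 4, FC_Upf3b-KO 3, Cere_Ctrl 2, Cere_Upf3b-KO 2 or 4), the smallest being −0.94 without Cere_Ctrl 2.

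**Figure D5:**
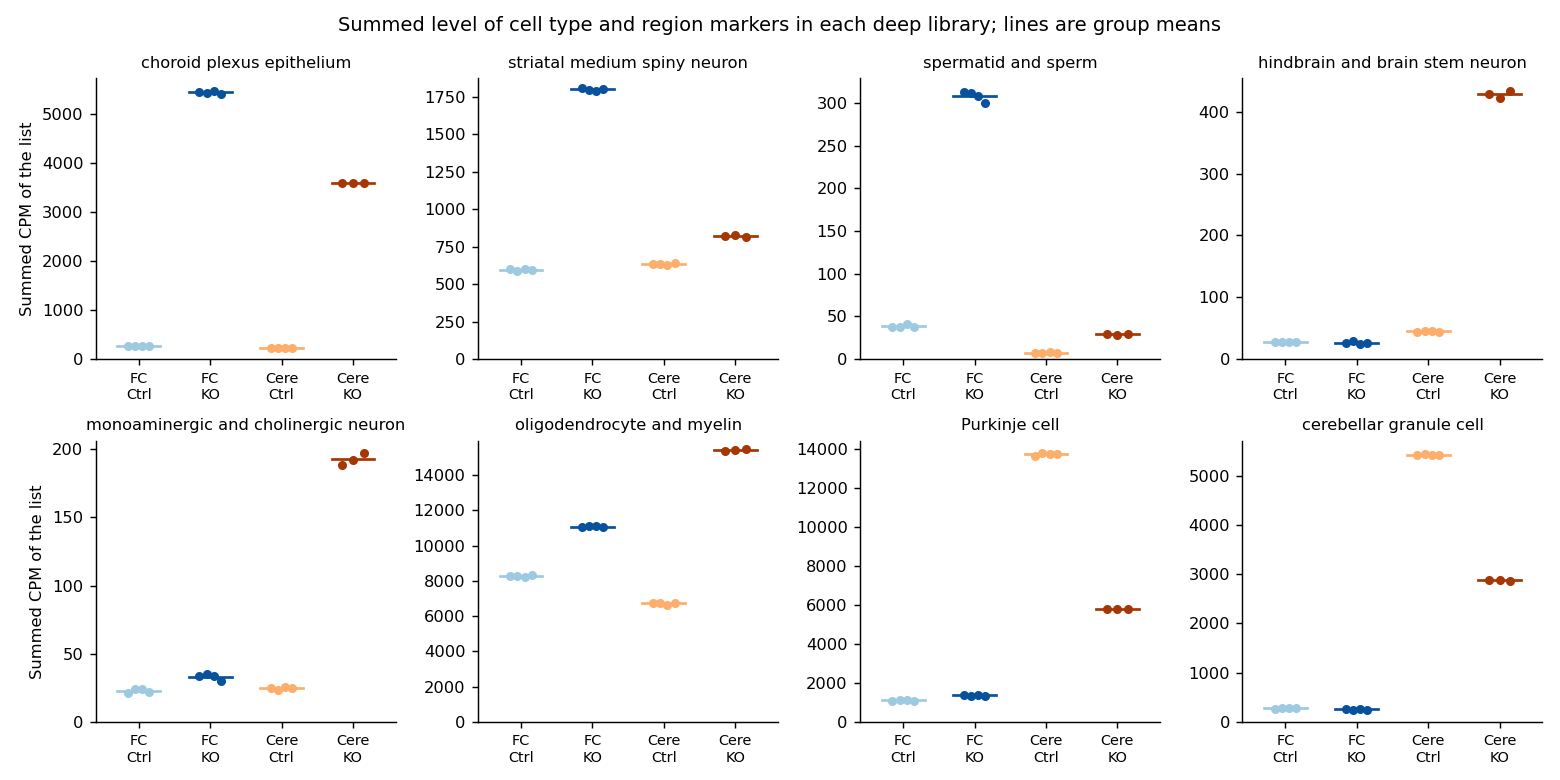
Points are the summed CPM (y axis, from 0) of the tested genes of 8 marker lists in each of the 15 deep libraries, by group on the x axis, and lines are group means. Choroid plexus, striatal and sperm sums are highest in Upf3b-KO frontal cortex, and Purkinje and granule cell sums are highest in Ctrl cerebellum. Brain stem, monoaminergic and cholinergic, and myelin sums are highest in Upf3b-KO cerebellum. Brain stem members near 0 in the other groups passed the count filter only through Upf3b-KO cerebellum, so nothing is read from that sum.

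Motile cilium genes, which build the beating axoneme of ependymal and choroid cells and of sperm, were divided on the log2 scale only, with 8 of 30 positive and 7 negative, while on the CPM scale 27 of 30 differences were negative. Their median of 0.12 ranged from 0.01 without Cere_Ctrl 2 and 0.02 without Cere_Upf3b-KO 3 to 0.26 without Cere_Ctrl 3. Among the 12 members with 1 CPM or more in both Ctrl groups 0 were positive and 4 negative, with a median of −0.31, but among the 9 with 10 CPM or more in some group 3 were positive and 1 negative, with a median of 0.55. Dnah6, an axonemal dynein, was at means of 1.77 and 6.85 CPM in frontal cortex and 18.6 and 11.2 CPM in cerebellum (interaction −2.67), whereas Rsph4a, a radial spoke protein, had 6.05 and 11 CPM in frontal cortex and 0.414 and 5.85 CPM in cerebellum (2.97). Of the spermatid and sperm genes 5 of 23 were negative and 1 positive, and 23 rose in frontal cortex and 13 in cerebellum. Members low in all other groups, such as Catsper1 and Spaca4, passed the count filter only through FC_Upf3b-KO, which fixed their rise in frontal cortex. The same holds for Hormad1 among the meiosis genes below. The negative count was 2 without Cere_Ctrl 3 and 3 without FC_Ctrl 1, FC_Upf3b-KO 1 or 2, or Cere_Upf3b-KO 2 or 3, and the positive call, Prm1, was lost without FC_Ctrl 3, Cere_Ctrl 1 or Cere_Upf3b-KO 2 and by limma-voom. Among the 7 members with 10 CPM or more in some group 0 were negative and 1 positive, with a median of 0.31, and both of the 2 with 1 CPM or more in both Ctrl groups were negative. The median of the whole list was −0.92, but −0.15, −0.14 and −0.14 without Cere_Ctrl 1, 2 or 3, so the list had no stable size or direction. Prm2, a protamine that packs sperm DNA, averaged 6.04 and 48.7 CPM in frontal cortex, 0.349 and 3.11 CPM in cerebellum, and its interaction was 0.14. Their summed level was 37.3 to 41.4 and 300.4 to 313 CPM in frontal cortex and 7.16 to 8.12 and 28.0 to 29.8 CPM in cerebellum. Among meiosis and germline genes 5 of 15 were negative and 1 positive, but 3 and 0 without Cere_Ctrl 1, and 7 and 1 without Cere_Upf3b-KO 4. The positive call was also lost without FC_Ctrl 3, Cere_Ctrl 2, 3 or 4, or Cere_Upf3b-KO 3. With 10 CPM or more in some group 3 members were left, 2 of them negative, and 0 of the 2 with 1 CPM or more in both Ctrl groups were called. Sycp1, a protein of the synaptonemal complex, had 27.2, 28.8, 28.2 and 29.4 CPM in Cere_Ctrl and 9.04, 9.59 and 9.96 CPM in Cere_Upf3b-KO, and rose from a mean of 0.265 to 1.70 CPM in frontal cortex, an interaction of −4.23 (SE 0.27).

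Neuropeptide genes were among the most often called, with 13 of 19 positive and 2 negative and a median of 3.69. Among the 6 with 1 CPM or more in both Ctrl groups, 2 were positive and 2 negative with a median of −0.13. Sst, the somatostatin precursor of cortical and brain stem neurons, was at 181, 178, 182 and 187 CPM in FC_Ctrl and at 127, 124, 122 and 116 CPM in FC_Upf3b-KO. In cerebellum it was at 0.926, 1.03, 1.02 and 0.904 CPM in Ctrl and at 38.1, 38.1 and 38.5 CPM in Upf3b-KO. Levels converged between the regions, and the interaction was 5.88 (SE 0.07). Vip, Pdyn and Cartpt had interactions of 6.57, 5.73 and 5.55, and each was below 0.1 CPM on average in Cere_Ctrl. Penk and Npy were the negative ones, at −2.22 and −1.09, and Cck, at −0.62, fell in cerebellum and was not called. Of the 8 hypothalamic genes tested, 6 were positive (Cartpt, Gal, Hap1, Pmch, Pomc and Trh), of which Cartpt, Gal and Trh are also counted among the neuropeptides. For 4 of the 8 no Cere_Ctrl library held more than 3 counts, and only Hap1 had 1 CPM or more in both Ctrl groups. The call of Pmch was lost without Cere_Upf3b-KO 3. The forebrain interneuron list, which shares Sst, Vip, Npy, Cort and Crh with the peptides, had 5 of 15 positive and 1 negative (2 without Cere_Upf3b-KO 2). Its median was −0.59, but 0.07 without Cere_Ctrl 1 and 0.06 without Cere_Ctrl 2, and of the 3 members with 1 CPM or more in both Ctrl groups 0 were positive and 1 negative. Dlx1, Dlx2 and Lhx6, transcription factors of such interneurons, had Cere_Upf3b-KO means of 0.00946, 0 and 0.118 CPM. Cortical projection neuron genes were likewise uneven, with 4 of 19 positive (Lamp5, Lhx2, Crym and Rspo1) and 0 negative. Of the 10 with 1 CPM or more in both Ctrl groups 0 were called, and the cortical transcription factors Tbr1 and Fezf2 had Cere_Upf3b-KO means of 0.421 and 0 CPM.

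Receptors and channels varied member by member. GABA-A receptor subunit genes had 4 of 15 positive and 1 negative, but 2 and 1 of the 11 with 1 CPM or more in both Ctrl groups, with a median of −0.16. Gabra5, the subunit of extrasynaptic receptors in hippocampus and cortex, had means of 0.678 and 31.6 CPM in cerebellum and 179 and 135 CPM in frontal cortex, an interaction of 5.97. Gabrd, the subunit of tonic inhibition in granule cells, had −1.35, and Gabra2 rose in both regions by 1.62 and 1.66 on the log2 scale with an interaction of 0.04. Glutamate receptor genes had 3 of 24 positive (Grin2d, Grin3a and Grm5) and 2 negative. Of the voltage-gated potassium channel genes 11 of 33 were positive and 4 negative. Among the 27 with 1 CPM or more in both Ctrl groups 6 were positive and 3 negative. Kcnh4, among the negative ones, was lost in 11 of the 15 refits that left out a library, and by limma-voom. Kcnc2, a fast-spiking channel, had means of 4.02 and 53.8 CPM in cerebellum and 147 and 112 CPM in frontal cortex (interaction 4.15), and Kcng1, a modifier subunit, 0.0147 and 5.30 CPM in cerebellum (8.57). Kcng4, at −1.79, was the lowest. Transporter genes had 6 of 14 positive and 0 negative with a median of 0.87, but 3 of 11 and a median of −0.14 among those with 1 CPM or more in both Ctrl groups. Among them Slc6a11, the GABA transporter of astrocytes, went from a mean of 69.3 to 415 CPM in cerebellum and had 241 and 189 CPM in frontal cortex (2.95), while Slc17a7, the cortical and granule cell glutamate transporter, had an interaction of −0.55.

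Neurofilament genes were positive in 4 of 5, with Nefm at 2.03, Nefh at 1.71 and Prph, the peripherin of motor and sensory axons, at 9.11. Ina, at 0.75, was under the fold limit. Myelin and oligodendrocyte genes, which encode the sheath of axons, had interactions above 0 in 16 of 16 and a median of 0.71, but only Mobp, Olig1 and Olig2 passed the fold limit, Mobp not without FC_Upf3b-KO 1. Within cerebellum 11 of the 16 rose past the fold limit. In frontal cortex 0 of 16 passed it, although the median fold change there was 0.33 on the log2 scale. Mbp, the myelin basic protein gene, was at 2724, 2645, 2586 and 2679.8 CPM in Cere_Ctrl and at 5808, 5832 and 5814 CPM in Cere_Upf3b-KO, with an interaction of 0.83. Their summed level was 8225 to 8316 and 11050 to 11130 CPM in frontal cortex and 6656 to 6763 and 15380 to 15500 CPM in cerebellum. Astrocyte and Bergmann glia genes had 2 of 16 positive (Slc6a11 and Agt) and 1 negative, Gdf10, a growth factor of Bergmann glia that went from a mean of 262 to 97.3 CPM in cerebellum and was not called without Cere_Upf3b-KO 4.

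Several programmes had few or no calls. In the microglia, endothelium and pericyte, and oligodendrocyte precursor lists 0 of 14, 0 of 15 and 0 of 6 genes were called by edgeR, DESeq2 or limma-voom. At an unadjusted p under 0.05, 10, 6 and 5 of them had an interaction in edgeR, and 12 of the 14 microglial values were above 0 with a median of 0.30. At an adjusted p under 0.05 and no fold limit, 48.0% of all tested genes had an interaction, so small differences were common. Thalamic genes were called in both directions, 2 of 10 each way, with 1 negative call lost without FC_Ctrl 1 or 3, FC_Upf3b-KO 3 or 4, Cere_Ctrl 2 or Cere_Upf3b-KO 4. Among the 7 thalamic members with 1 CPM or more in both Ctrl groups 0 were positive and 2 negative. Of 10 meningeal fibroblast genes only Dcn was called. All 5 red cell genes were positive, with a median of 1.20, and their summed level was 1255 to 1325 CPM in Cere_Ctrl and 2402 to 2451 CPM in Cere_Upf3b-KO against 489 to 504 and 422 to 433 CPM in frontal cortex; the globin copies are near-identical. Immediate early genes, which follow neuronal activity, had 2 of 15 positive (Egr3 and Fosb) and 2 negative (Egr1 and Egr2), of which Egr3 was lost without Cere_Upf3b-KO 3 and Egr2 without Cere_Ctrl 2, while Fos rose in both regions with an interaction of 0.18. By limma-voom 1 was called each way, and among the 11 with 1 CPM or more in both Ctrl groups 0 were positive and 1 negative. Interferon-stimulated genes had 3 of 16 negative, Irf7 beside the Ifit3 pair. Irf7, at −1.01, was under the limits in 11 of the 15 refits that left out 1 library, and the count was 0 without Cere_Upf3b-KO 3 and 1 without FC_Ctrl 1, FC_Upf3b-KO 2 or 3, or Cere_Upf3b-KO 2.

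The decay pathway itself was examined last. None of the 11 NMD factor genes was called by edgeR, DESeq2 or limma-voom, but all 11 interactions were below 0, with a median of −0.28 against −0.01 over all genes. In edgeR 8 of the 11 had an unadjusted p under 0.05 and 6 passed the adjusted threshold without reaching the fold limit. At edgeR's adjusted p under 0.05 and no fold limit 7 of the 11 had an interaction, beside 48.0% of all tested genes, so such small differences were common. Smg1, the kinase of the pathway, had the lowest value, −0.66. Upf3a had −0.43, and its means were 35.9 and 45.5 CPM in frontal cortex and 32.8 and 30.6 CPM in cerebellum. Of the 9 exon junction complex genes 0 were called by the same 3 tools, with a median of −0.13, and 5 had an unadjusted p under 0.05 in edgeR. At edgeR's adjusted p under 0.05 and no fold limit 4 of the 9 had an interaction, near the 48.0% of all tested genes. Among 25 genes known as NMD targets, 2 were negative, the stress response genes Atf3 (−1.49) and Trib3 (−2.02), and the median was −0.16. Neither call is among the 23 members with 1 CPM or more in both Ctrl groups or the 18 with 10 CPM or more in some group, where 0 were called. Atf3 was not called without FC_Ctrl 2 or 4, FC_Upf3b-KO 2, Cere_Ctrl 1, or Cere_Upf3b-KO 2 or 4. Gas5, a host of small nucleolar RNAs whose own transcript is an NMD target, rose in cerebellum from a mean of 24.1 to 50.9 CPM and had 48.4 and 84.2 CPM in frontal cortex, an interaction of 0.30.

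The regions also stood less far apart in Upf3b-KO than in Ctrl libraries, by the median over all genes. The median absolute difference between cerebellum and frontal cortex over all genes was 0.54 on the log2 scale in Ctrl and 0.44 in Upf3b-KO. Of the positive genes, 1020 were more than 2-fold lower in cerebellum than in frontal cortex of Ctrl mice, and for 492 of them the regions were within 2-fold in Upf3b-KO mice. Of the negative genes, 347 were more than 2-fold higher in Ctrl cerebellum, and 158 of them were within 2-fold in Upf3b-KO. These differences share libraries with the interaction and are not independent of it. Marker sums of several lists differed between genotypes. Those of choroid plexus, striatal and sperm genes differed in both regions, and those of Purkinje, granule cell and myelin genes mainly in cerebellum. Their part in the interactions of other genes was not tested, nor was how much neighbouring tissue the dissected pieces held.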

How the data were processed

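Whole-tissue RNA was depleted of ribosomal RNA, amplified with SMART-Seq v4 and sequenced in pairs on an Illumina NovaSeq. The authors aligned reads with STAR 2.5.2b to GRCm39 and deposited RSEM expected counts per transcript, 1 matrix per region, so estimated counts are shared among similar transcripts. Whether counting used strand was not given in the sources used here, so overlapping and antisense genes are uncertain. The submitters' processing notes also name DESeq2 and featureCounts.

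Transcripts of both matrices were joined by identifier and summed per gene with the GENCODE annotation supplied (GRCm39), which matched 141102 of 142435 transcripts and 99.3 to 99.4% of counts per deep library, giving 55266 genes. Summed counts were rounded. Genes were kept by filterByExpr (minimum count 10, minimum total 15), scaled by TMM and tested with edgeR 4.0.16 (quasi-likelihood F test, R 4.3.3) in one model of the 4 groups over 15 libraries. P-values were Benjamini-Hochberg adjusted over 19831 genes, and calls needed an adjusted p under 0.01 and over 2-fold. SE is the fold change divided by the square root of F. CPM are per library total. Deep libraries detect 3 counts at 0.0851 to 0.108 CPM, and the shallow one at 46.2 CPM. Intervals of that kind cover counting error only.

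Single genes were the 3 with the smallest adjusted p in each class and sign of regional calls, with a mean of at least 10 CPM in some group, no clone-type symbol or pseudogene, and separate genotypes in each called region; other genes are named as list members. Some genes that met these rules are not reported here. The members and lists were chosen with earlier results of these data known. The procedure was checked on simulated counts. DESeq2 1.42.0, limma-voom 3.58.1, other scalings, filters and thresholds, all 16 libraries, a replicate block and leaving out each library were the alternatives; analyses without marker genes, or of protein-coding genes only, were added after the data were seen.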

Additional observations from a re-analysis of the deposited data

Results flagged for a closer look

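The response to Upf3b loss differed between the regions, by edgeR's test of that difference, for 1864 genes and for the genes picked by rule. Positive differences on the log2 scale were 7.41 for Lamp5, 5.733 for Slc5a7, 5.73 for Il22, 5.386 for Tac1, 5.226 for Fibcd1, 4.218 for Tshz2, 3.877 for Car12, 3.427 for Spp1 and 2.188 for Nefl. Smaller positive ones were 1.78 for Nrsn1, 1.446 for Agt, 1.386 for Nnat, 1.376 for Cst3, 1.359 for Ncs1, 1.094 for Zwint and 1.053 for Dcn. The negative differences were −4.574 for Clic6, −3.222 for Sulf1, −3.13 for Strip2, −3.058 for Ppp1r1b, −2.671 for Casq2, −2.585 for Cep72, −2.216 for Penk and −1.926 for Rgs8. Smaller negative ones were −1.491 for Itpr1, −1.463 for Ecrg4, −1.342 for Garnl3, −1.285 for Chn2, −1.281 for Plcb4, −1.055 for Ifit3, −1.05 for Ifit3b and −1.015 for Ace.

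Single libraries stood apart from the others of their group by Dixon's criterion for Itpr1 in FC_Upf3b-KO (544.7 CPM) and for Cep72 in FC_Ctrl (1.645 CPM). Chance marks about 1 in 20 of the 99 groups examined.

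The shallow Cere_Upf3b-KO library was used only in the refit with all 16 libraries. Of the 16 genes picked by rule with a positive difference, 13 had more counts in it than its depth would give at the Cere_Ctrl mean. For the 7 listed next it held at least 3 counts with a one-sided Poisson p under 0.001, which covers counting error only. It held 95 counts of Nefl, where 24.9 would be expected at the mean of Cere_Ctrl and 88.1 at that of the deep Upf3b-KO libraries. It held 42 counts of Cst3 (21.6 and 37.3), 24 of Nrsn1 (6.6 and 24.8) and 23 of Ncs1 (10.8 and 22.1). It held 8 counts of Slc5a7 (0.0144 and 3.53), 6 of Lamp5 (0.0329 and 7.96) and 5 of Car12 (0.0448 and 2.08). The 3 positive genes at or under the Ctrl expectation were Nnat (4 counts, 6.66 expected), Dcn (1 count, 1.84 expected) and Il22 (0 counts, 0.75 expected).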

How the results depend on the processing

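In the refits that changed the tool, scaling, filter or libraries, none of the 1864 calls that could be tested reversed direction, and counts stayed within 1.5 times. Of these calls 1845 were kept by DESeq2, 1733 by limma-voom, 1542 at a minimum count of 50 (300 were not tested), 1807 with all 16 libraries (44 not tested) and 1685 to 1752 without 1 library. DESeq2 gave 2052, limma-voom 1915, median-of-ratios scaling 1868, no low-count filter 2068, a minimum count of 50 gave 1575, and all 16 libraries 1871. Leaving out 1 library gave 1786 to 1841. Other thresholds moved the count by construction: over 1.5-fold gave 3336 (1953 positive, 1383 negative), an adjusted p under 0.05 without a fold limit 9527 (4799 and 4728), and a test against 2-fold 841 (668 and 173). Genes that averaged 10 CPM or more in some group numbered 821 (569 and 252), and those with 1 CPM or more in both Ctrl groups 872 (555 and 317). On the linear CPM scale the sign turned for Il22 (−5.302), Tac1 (−1.08) and Car12 (−28.35). Deviations of same-numbered libraries of a genotype correlated at −0.045 to 0.063. Libraries of different genotypes, which do not share a mouse, reached 0.117 (Cere_Ctrl 4 with Cere_Upf3b-KO 4). These correlations therefore cannot tell whether the numbers pair the samples. With the number as a replicate block 1765 genes were called (1200 and 565), and within genotype 1671 (1149 and 522). Ace, Ifit3 and Ifit3b fell under the fold limit in some refits. Further analyses were added after seeing the data: without marker genes 1750 were called, and with protein-coding genes only 1631. Depth limits genes at 3 counts or fewer in every library of one region: 214 that rose in frontal cortex and 44 in cerebellum.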
